A study of Mus musculus with 8 samples.

Results

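Among the transcripts measured in collecting duct cells given aldosterone, 238 array probes stood lower against vehicle after 6 h than after 1 h. A probe was taken when its highest log2 ratio on the 4 arrays at 6 h lay below its lowest on the 4 arrays at 1 h, and its mean ratio was lower by at least 0.4 on the log2 scale, which is 1.32-fold. Of 16361 probes, 16083 had values on all 8 arrays, and 249 of these met both conditions. Genes named Rpl or Rps (8 probes) and Ccl or Cxcl (3 probes) were then left out, so the 238 probes are 1.48% of those with 8 values. The probes were thus chosen by the ratios at each time and their difference, which are therefore described below without a test.

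The cells were mpkCCDc14, an established mouse line of the kidney cortical collecting duct, grown on collagen-coated permeable supports and held in charcoal-treated, steroid-free serum before treatment. Aldosterone at 1 µM for 1 h (4 arrays) or for 6 h (4 arrays) was compared on each array with ethanol vehicle given for the same time. Aldosterone cDNA carried Cy5 and vehicle cDNA Cy3 on all 8 arrays, so a log2 ratio above 0 is a higher signal with aldosterone. The dyes were not exchanged. A constant difference between dyes at a probe is thus part of each ratio, though it cancels in the 6 h minus 1 h difference. The labels do not say whether arrays of one time came from separate cultures, so the spread between them may be technical, and 4 arrays per time limit the precision. Replicate numbers were given here in the order of deposit, and the same number at 1 h and 6 h does not mark a pair.

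Aldosterone, the adrenal mineralocorticoid, binds the mineralocorticoid receptor, and at high concentration also the glucocorticoid receptor, which then act on transcription in the nucleus. In the collecting duct the hormone is known for raising sodium uptake through the epithelial sodium channel, through early induced regulators such as Sgk1 and a later phase of transporter synthesis. Immediate early genes form a separate class: their transcripts rise and decay within hours of growth factors, serum change or stress, partly because their mRNAs are unstable.

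The ratios of the 238 probes had medians of 0.22, 0.19, 0.28 and 0.50 on replicates 1 to 4 at 1 h. At 6 h the medians were -0.18, -0.28, -0.17 and -0.17. All probes together were centred near 0 on every array, with medians within 0.01 of it. The SD of all ratios on an array ranged from 0.310 to 0.589, and was highest on replicate 4 at 1 h. That array gave the highest 1 h value for 57.1% of the 238 probes (37.7% of all probes), and replicate 2 at 6 h gave the lowest 6 h value for 48.3% (26.9% of all probes). Without the former the median difference of the 238 probes was -0.44 in place of -0.49, and 153 of them still met both conditions. With each of the 8 arrays left out in turn, 112 probes (47.1%) met them every time. Leaving out an array cannot bring an overlap, so only the condition of 0.4 could fail here. The deposited ratios give no level of expression, so the cell type could not be checked through its markers, none of which was among the 238 probes (13 of the 15 principal cell markers had a probe).

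Most differences were small. The median difference was -0.49, against -0.02 over all 16083 probes, and 121 of the 238 probes (50.8%) differed by less than 0.5. In 11 probes the mean ratio was at least 2-fold lower at 6 h, with the largest difference at -1.87. The gap between the lowest 1 h and the highest 6 h value had a median of 0.12, from 0.01 to 0.60, and was over 0.3 in 15 probes. Over all names and sizes of difference, 740 probes (4.6%) were lower and 802 (4.99%) higher at 6 h without overlap. Of those higher at 6 h, 389 differed by at least 0.4. In a limma fit over all 16083 probes, 0 of the 238 passed an adjusted p of 0.05 for 6 h minus 1 h, where 0.00622% of all probes were called lower and 0.0187% higher. At an unadjusted p of 0.05, 235 of the 238 and 16.2% of all probes passed. These counts repeat the choice of the probes.

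The 238 probes included genes above vehicle at 1 h and genes below vehicle at 6 h, and 29 crossed from one to the other on every array. In 85 probes (35.7%) all 1 h values were above 0 and the 6 h values lay on both sides of it, with medians of 0.47 at 1 h and -0.01 at 6 h. A further 29 probes (12.2%) were above 0 on all 8 arrays, with medians of 0.68 and 0.22. Another 29 were above 0 on every 1 h array and below it on every 6 h array, with medians of 0.29 and -0.27. In 60 probes (25.2%) the 1 h values were mixed and the 6 h values all below 0, with medians of 0.01 and -0.53. The last 35 (14.7%) were below 0 on all 8 arrays, with medians of -0.40 and -0.93. The share with all arrays above 0, or all below 0, was thus near that of all probes (14.6% and 15.1%), and the full crossing was held by 0.547% of all probes. The rule favours crossing, so nothing is read from these shares.

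At 1 h, limma called 123 of the 238 probes above vehicle, where 20% of all probes were called, and 22 below it (21% of all). At 6 h it called 5 above (7.06% of all) and 97 below (10.4% of all). The choice of the probes used these ratios too.

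The mean ratio over both times is least bound to a rule on their difference, and was the comparison with vehicle that was tested. It comes from the same 8 arrays as the rule, and a constant dye difference does not cancel in it. The spread was larger at 1 h than at 6 h (median SD over all probes 0.19 and 0.16), so this mean is not wholly free of the rule. Errors of this mean are limma standard errors over 8 arrays, with each probe's spread drawn toward that of all probes. Errors of the mean at one time are SDs over 4 arrays. By limma, 91 of the 238 probes (38.2%) were above vehicle, where 24% of all probes were called higher. Below vehicle were 79 (33.2%), where 25.5% of all probes were called lower, and 68 did not pass. Nothing is read from these shares, and the p-values of single genes are for probes chosen from the same arrays. Kif24, a kinesin that acts at centrioles, was 0.76 ± 0.07 (SE, n = 8 arrays) above vehicle with an adjusted p of 0.000146 by limma. S100a6, a calcium-binding protein of proliferating epithelia, was 0.63 ± 0.12 above it (adjusted p = 0.00259, limma). At the other end, Klrc1, a natural killer cell receptor, was at -0.96 ± 0.07 (adjusted p = 5.93e-05, limma). Glp1r, the receptor of the incretin GLP-1, was at -1.10 ± 0.10 (adjusted p = 0.000145, limma). Olfr17, an olfactory receptor, was at -1.02 ± 0.10 (adjusted p = 0.000147, limma). The transcripts 4921504E06Rik and 6330415B21Rik, of which no role is given here, were at -1.01 ± 0.08 and -1.19 ± 0.16. Kif24 has another probe whose mean ratios were -0.27 at 1 h and -0.53 at 6 h. With the probes of a gene averaged, Kif24 was at 0.18 and did not pass (adjusted p = 0.0628, limma).

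Some of the largest differences rested on 1 array. Zik1, a zinc finger protein of chromosome 7, had values of 0.75, 0.35, 0.32 and 0.06 at 1 h and of -0.15, -0.81, -0.11 and -4.93 at 6 h. Its difference of -1.87 became -0.73 without replicate 4 at 6 h. Tex30, known from the testis, read 1.41, 0.21, 0.55 and 0.64 at 1 h and -0.15, -0.27, -0.26 and -3.02 at 6 h. Replicate 4 was again the low array, and the difference of -1.63 was -0.93 without it. The transcript 2700046G09Rik was at 1.03, 0.80, 1.15 and 2.79 at 1 h and at 0.17, 0.55, 0.18 and -0.47 at 6 h. Here replicate 4 at 1 h was the high array, and its difference went from -1.34 to -0.89 without it. Ms4a13, a membrane protein family member, and 6330415B21Rik each had a difference of -0.83, which became -0.48 and -0.47 without replicate 1 at 6 h. In all, 38 of the 238 differences shrank by more than 1.5 times when 1 array was left out.

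Other large differences did not rest on 1 array. Phlda1, a pleckstrin homology protein of growth factor and stress responses, was at 0.04, 0.16, 0.91 and 0.76 at 1 h and at -0.62, -0.72, -0.56 and -0.71 at 6 h. The 6 h arrays were close together (SD 0.08), and those at 1 h were not (SD 0.43). Eprs, which charges tRNA with glutamate and proline, was at -0.33, -0.55, -0.13 and -0.62 at 1 h and at -1.19, -2.11, -0.90 and -1.64 at 6 h. All 8 arrays were below 0 at this probe, and another Eprs probe had means of -0.39 at 1 h and -0.10 at 6 h, the opposite order. Cd59a, an inhibitor of the complement attack complex, varied widely within both times, at -0.02, 1.06, 0.40 and -0.29 against -2.07, -0.63, -2.01 and -0.47. Its mean over both times did not pass (-0.50 ± 0.21, adjusted p = 0.0681, limma).

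For the account by function, genes whose roles are well known were placed by hand in 8 groups after their values had been seen, which left 85 probes unassigned. Group counts are therefore descriptions. The counts of calls over both times given for each group stand beside 24% above and 25.5% below vehicle over all probes. The early response and growth factor group held 24 genes, of which 18 were above vehicle on every 1 h array and 9 below it on every 6 h array. The group's median was 0.42 at 1 h and -0.10 at 6 h, and over both times limma called 11 above vehicle and 5 below.

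Among nuclear factors of this group, Jund, an AP-1 subunit, was at 0.52, 0.44, 0.62 and 1.27 at 1 h and at 0.13, 0.31, 0.29 and 0.28 at 6 h. All 8 arrays were above 0, with a mean over both times of 0.48 ± 0.09 (adjusted p = 0.00184, limma), and without replicate 4 at 1 h the Jund difference went from -0.46 to -0.27. Btg1, an antiproliferative gene of the early response, was at 0.22, 0.16, 0.44 and 0.94 at 1 h and at -0.30, 0.02, -0.13 and -0.10 at 6 h. Thus Btg1 was above vehicle on each 1 h array and near or below it at 6 h. Egr4, a zinc finger factor of the Egr family, stood below vehicle throughout, at -0.27, -0.46, -0.21 and -0.56 and then at -1.10, -1.63, -0.85 and -0.66. Its mean over both times was -0.72 ± 0.10 (adjusted p = 0.000554, limma). Etv1, an ETS factor downstream of receptor tyrosine kinases, was also below vehicle on all 8 arrays, with means of -0.68 ± 0.23 (SD, n = 4) at 1 h and -1.09 ± 0.13 at 6 h. Ell2, an elongation factor for RNA polymerase II, had means of 0.42 ± 0.17 and -0.04 ± 0.11.

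Feedback and signalling genes included inhibitors and kinases. Spry1, an inhibitor of receptor tyrosine kinase signalling, was at 0.08, -0.12, 0.49 and 0.49 at 1 h and at -0.45, -0.62, -0.22 and -0.47 at 6 h. Mapk6, an atypical MAP kinase with a short-lived protein, was at 0.33, 0.50, 0.42 and 0.54 at 1 h and at 0.03, -0.12, 0.04 and -0.02 at 6 h. Mapkapk2, a kinase downstream of p38 that stabilizes inflammatory mRNAs, was at 0.41, 0.40, 0.49 and 0.36 and then at 0.12, -0.08, -0.08 and -0.17. For both kinases the 1 h arrays lay close together and the 6 h arrays lay around 0. Mapk6 also has another probe with means of -0.33 and -0.21, and averaging both probes turned its mean over both times from 0.22 to -0.03. Rgs3, which shortens G protein signalling, was below vehicle at both times, with means of -0.27 ± 0.19 and -0.72 ± 0.33 (SD, n = 4). Its difference of -0.45 was -0.29 without replicate 2 at 6 h. Another Rgs3 probe had the opposite order, with means of -0.75 and -0.64, and averaging both gave an Rgs3 difference of -0.17.

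At the membrane and outside the cell, Emp1, a tetraspan protein of epithelia, was at 0.39, 0.37, 0.52 and 0.58 at 1 h and at 0.08, -0.21, 0.01 and 0.05 at 6 h. Plat, the tissue plasminogen activator, was at 0.20, 0.59, 0.49 and 0.51 and then at -0.10, 0.01, -0.06 and -0.38. Both were above vehicle on every 1 h array and near 0 at 6 h. Emp1 passed over both times (0.22 ± 0.05, adjusted p = 0.0063, limma) and Plat did not (0.16 ± 0.06, adjusted p = 0.0579, limma). Sdc4, a heparan sulphate proteoglycan of focal adhesions, had means of 0.53 ± 0.29 and -0.02 ± 0.14 (SD, n = 4). Smad2, which carries TGF-beta signals to the nucleus, was above vehicle on all 8 arrays, with means of 0.68 ± 0.18 and 0.26 ± 0.17.

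Against a wider list of 40 immediate early and AP-1 probes, 3 (Jund, Btg1 and Egr4, 7.5%) were among the 238, where the share over all probes was 1.48%. In that list 9 probes were called above vehicle and 2 below at 1 h by limma, where 20% and 21% of all probes were called, so the higher calls were near the background. Its other probes did not share 1 course. Fos, Jun and Egr1 had means of -0.11, 0.09 and 0.12 at 1 h and of -0.16, 0.11 and -0.02 at 6 h. Limma called none of them at either time. Ccn1, a matrix protein of the early response, had a mean of 0.33 at 1 h and -0.20 at 6 h, and Btg2, the relative of Btg1, 0.15 and -0.28. Fosl1, an AP-1 subunit, had 0.60 and 0.90, and Dusp6, a phosphatase that limits ERK, 0.15 and 0.86, both higher at 6 h.

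The promoters of Btg1, Ell2 and Emp1 are shown as examples picked by hand. These early response genes were above vehicle at 1 h on every array. A RefSeq promoter of each (GRCm38.p6, 250 bases before to 50 after the start, plus strand) holds AP-1 or CRE half-site letters. Other genes of the group that were above vehicle on every 1 h array, such as Mapk6 and Mapkapk2, also have a promoter with a CRE half-site. The promoter of Jund and a second promoter of Mapk6 hold none of the letters searched. Ier5l, Rapgef1, Sdc4 and Sox4, also of the group and above vehicle on every 1 h array, have a promoter without AP-1 or CRE letters. Emp1 has a second promoter in the table, at chr6:135367243-135367542, which holds neither and is not printed. Capitals mark TGANTCA or TGACG on either strand, and CGTCA is TGACG read on the minus strand. Counted from the start, the first capitals lie at -187 in Btg1 (chr10:96616751-96617050), at -198 in Ell2 (chr13:75707234-75707533) and at -145 in Emp1 (chr6:135362681-135362980).
Btg1: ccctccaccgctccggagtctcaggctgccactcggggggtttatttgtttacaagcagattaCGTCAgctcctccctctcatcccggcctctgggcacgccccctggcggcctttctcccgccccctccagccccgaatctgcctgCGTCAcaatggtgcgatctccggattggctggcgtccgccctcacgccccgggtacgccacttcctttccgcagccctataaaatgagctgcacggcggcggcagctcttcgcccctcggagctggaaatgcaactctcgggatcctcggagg
Ell2: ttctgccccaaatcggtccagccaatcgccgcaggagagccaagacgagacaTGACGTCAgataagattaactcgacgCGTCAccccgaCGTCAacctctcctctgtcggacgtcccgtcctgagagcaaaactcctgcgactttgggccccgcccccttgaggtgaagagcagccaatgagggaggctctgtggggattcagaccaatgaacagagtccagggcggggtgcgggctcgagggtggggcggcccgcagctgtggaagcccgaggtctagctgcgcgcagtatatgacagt
Emp1: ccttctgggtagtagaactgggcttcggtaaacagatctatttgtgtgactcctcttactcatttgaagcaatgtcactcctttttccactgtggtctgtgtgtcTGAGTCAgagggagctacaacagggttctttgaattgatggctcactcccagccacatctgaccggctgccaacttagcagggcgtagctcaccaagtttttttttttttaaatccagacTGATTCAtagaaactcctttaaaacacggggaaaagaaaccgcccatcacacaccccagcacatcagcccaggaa

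In the promoters of the 238 probes as a whole these letters had shares close to those of other promoters on the array. Of the 198 genes with 1 symbol 157 had a RefSeq promoter, 200 promoters in all, and they were set beside 12604 promoters of genes on the array. TGACG was found in 29.5% of them and in 27.1% of promoters of array genes, and TGANTCA, the AP-1 site, in 7.5% and 6.51%. The full CRE, TGACGTCA, which contains TGACG, was in 1.5% (Ell2, Ube2b and Uncx) against 2.53%. The corticosteroid receptor half-site AGAACA was in 12.5% against 14.7%, and the full palindromic receptor site in 0 of 200 against 0.0159%. CCAAT was in 34% against 37.4%, TATAAA in 11.5% against 10.1%, CACGTG, the E-box, in 10% against 9.03%, and CCGGAAG, an ETS site, in 13% against 13.3%. GGGGCGGGG, an Sp1 site, was in 18% against 18.1% and the NRF1 site in 1% against 1.66%, while both forms of the NF-kB site searched were in 0 of 200 against 0.182% and 0.0952%. Both strands were searched throughout. The median GC content was 59.5% against 58.7%. A match is letters in a window and not evidence of binding.

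One probe of the group read Mir22hg, the host transcript of miR-22. Its values were 0.11, 0.11, 0.24 and 0.47 at 1 h and -0.24, -0.41, -0.09 and -0.11 at 6 h, above 0 on every array and then below 0 on every array. The gene lies at chr11:75461539-75466690 and the hairpin at chr11:75463716-75463810 on the plus strand (GRCm38.p6, RefSeq). The mature forms are printed, with the seed in capitals, to show what the host transcript carries, and no value was measured for the miRNA itself.
mmu-miR-22-5p: aGUUCUUCaguggcaagcuuua
mmu-miR-22-3p: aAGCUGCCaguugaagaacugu

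Transcription factors and chromatin proteins numbered 20, with a median of 0.33 at 1 h and -0.37 at 6 h. Of these 13 were above vehicle on every 1 h array and 11 below it on every 6 h array, and over both times 7 were above, 8 below and 5 did not pass. Tet1, which oxidizes methylated cytosine, was at 0.76, -0.05, 0.07 and -0.01 at 1 h and at -0.94, -1.26, -0.48 and -0.81 at 6 h. Only 1 of its 1 h arrays was clearly off 0, and all of its 6 h arrays were below. Its mean over both times was -0.34 ± 0.11 (adjusted p = 0.0234, limma), and it no longer passed without replicate 2, 3 or 4 at 1 h or without replicate 1 or 2 at 6 h (adjusted p from 0.0508 to 0.0609). Mllt10, a partner of the DOT1L histone methyltransferase, was at 0.22, 0.01, 0.19 and -0.46 and then at -0.86, -1.49, -0.62 and -0.67. Zbtb14, a zinc finger repressor, was above vehicle at 1 h, at 0.97, 0.58, 0.81 and 2.01, and had a mean of 0.13 ± 0.32 (SD, n = 4) at 6 h. Uncx, a homeobox factor of the developing axial skeleton and nervous system, was at 0.16, 0.18, 0.43 and 0.38 and then at -0.55, -0.27, -0.47 and -0.73. Uncx thus crossed from above to below vehicle on every array. A pair of factors of other lineages was below vehicle on all 8 arrays. Neurog2, a neural factor, had means of -0.29 and -0.90, and Nkx2-2, of spinal cord and pancreas, of -0.44 and -1.02.

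Genes of RNA synthesis and processing, translation and protein turnover, 23 in all, were mostly above vehicle at 1 h and near it at 6 h, with a median of 0.54 and then 0.06. On every 1 h array 19 were above vehicle, on every 6 h array 5 were below, and over both times 17 were above and 2 below. Eif5a, the hypusine-bearing translation factor, was at 0.68, 0.51, 0.57 and 1.17 at 1 h and at 0.29, 0.27, 0.39 and 0.37 at 6 h, above 0 on all 8 arrays. Its mean over both times was 0.53 ± 0.07 (adjusted p = 0.000561, limma). Without replicate 4 at 1 h the Eif5a difference went from -0.40 to -0.26. Hnrnpu, a nuclear RNA-binding scaffold protein, had means of 0.60 ± 0.22 and 0.19 ± 0.05 (SD, n = 4), and Srsf5, a splicing factor, of 0.48 ± 0.29 and 0.05 ± 0.08. Polymerase subunits Polr1c and Polr3k had means of 0.59 and 0.72 at 1 h and of 0.15 and 0.12 at 6 h. Of the ubiquitin system, Cul2, a scaffold of VHL ligases, had means of 0.80 and 0.18, and Ube2b, a conjugating enzyme of DNA repair, of 0.73 and 0.14. Without replicate 4 at 1 h the Ube2b difference went from -0.59 to -0.36. The other probes of Cul2 and Ube2b had differences of smaller size, with means of 0.13 and 0.06 for Cul2 and of 0.24 and 0.10 for Ube2b. By list, 6 of 298 RNA processing probes (2.01%) and 3 of 81 translation factor probes (3.70%) were among the 238, against 1.48% of all probes.

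The 12 cytoskeletal genes had the highest median at 1 h, 0.56, and a median of 0.14 at 6 h. Of these 10 were above vehicle on every 1 h array, and over both times 9 were above and 2 below. Marcks, which binds actin and the membrane and is released by protein kinase C, was at 0.44, 0.40, 0.64 and 0.61 at 1 h and at -0.01, -0.29, -0.13 and -0.32 at 6 h. The arrays were close together within each time, and lay above 0 at 1 h and below it at 6 h. Its mean over both times (0.17 ± 0.05, adjusted p = 0.0281, limma) did not pass under 3 of the left-out arrays or under scale or quantile normalization (adjusted p = 0.057 and 0.051, limma), and became -0.10 when averaged with its other probe, which was at -0.38 and -0.36. Kif24 was at 1.14, 1.07, 1.05 and 1.15 at 1 h, an SD of 0.05, and at 0.31, 0.14, 0.42 and 0.82 at 6 h. Lasp1, an actin-binding LIM protein, had means of 0.79 ± 0.27 and 0.36 ± 0.06 (SD, n = 4), and Tmsb4x, thymosin beta 4, which sequesters actin monomers, of 0.55 ± 0.24 and 0.13 ± 0.19. Camsap2, which caps microtubule minus ends, was instead below vehicle on all 8 arrays, with a mean of -0.27 at 1 h and of -0.86 at 6 h. Another Camsap2 probe had the opposite order, with means of -0.29 and 0.02, and averaging both took the Camsap2 difference from -0.59 to -0.14.

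Transport, lipid carriage and vesicle genes numbered 20, with medians of 0.47 and -0.01, and over both times 11 were above and 5 below. Slc9a9, an endosomal sodium-hydrogen exchanger, was below vehicle on every array, at -0.71, -0.66, -0.36 and -0.42 at 1 h and at -1.32, -1.95, -1.24 and -1.01 at 6 h. Its mean over both times was -0.96 ± 0.09 (adjusted p = 0.000183, limma). It was the single member among 34 probes of sodium transport and its regulators (2.94%, against 1.48% of all probes). None of the 29 probes of known corticosteroid early targets was among the 238, and in that list 0 probes were lower and 4 higher at 6 h without overlap, where 4.6% and 4.99% of all probes were, so few lower ones could be counted among 29. The 1 h arrays were not alike at these targets. At 1 h Sgk1 was at 1.65, 1.38, -0.64 and -0.16 and Tsc22d3 at 1.01, 0.88, -0.60 and -0.15. Fkbp5 was at 0.76, 0.69, 0.03 and 0.63, so replicate 4 was not low at every target. The reason for this split was not tested. Cldn10, a paracellular ion channel of the nephron, had means of -0.44 and -1.11 at this probe and of 0.37 and 0.04 at another. Lipid carriers stood on the other side of vehicle at 1 h. Vldlr, a lipoprotein receptor, had means of 0.52 ± 0.08 and 0.04 ± 0.18 (SD, n = 4), and Abca1, the cholesterol exporter, of 0.31 ± 0.29 and -0.24 ± 0.30. Slc38a2, the amino acid carrier SNAT2, had means of 0.50 ± 0.15 and 0.03 ± 0.10, and Bsg, a chaperone of lactate carriers, of 0.65 ± 0.36 and 0.16 ± 0.11. Without replicate 4 at 1 h the Bsg difference went from -0.49 to -0.32.

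The 18 mitochondrial and metabolic genes had medians of 0.28 and -0.15, and over both times 7 were above, 6 below and 5 did not pass. Complex I subunits Ndufa6 and Ndufa7 had means of 0.51 and 0.56 at 1 h and of 0.10 and 0.16 at 6 h. Without replicate 4 at 1 h the Ndufa6 difference went from -0.41 to -0.21. Tyms, thymidylate synthase, had means of 0.55 ± 0.23 and 0.11 ± 0.24 (SD, n = 4). Elovl4, an elongase of very long fatty acids, had means of -0.21 ± 0.28 and -0.94 ± 0.28, and Sqor, the mitochondrial sulfide oxidase, of -0.13 ± 0.14 and -0.68 ± 0.32. These 2 were below vehicle over both times (adjusted p = 0.000906 and 0.00309, limma).

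Innate immune genes numbered 5, of which 3 were above vehicle on every 1 h array and 3 below it on every 6 h array. Cd14, a co-receptor for bacterial lipopolysaccharide, was at 0.35, 0.36, 0.30 and 1.13 at 1 h and had a mean of -0.09 ± 0.10 (SD, n = 4) at 6 h. Ifit1, an interferon-induced RNA-binding protein, had means of 0.50 ± 0.11 and 0.10 ± 0.12, and Ifnar1, a chain of the type I interferon receptor counted above with signalling, of 0.58 ± 0.12 and 0.18 ± 0.19. Of 180 NF-kB and inflammatory probes other than chemokines, Ifit1 and Ifnar1 were the 2 among the 238 (1.11%, against 1.48% of all probes).

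The 31 receptors and surface or secreted proteins known from other tissues had a median of 0.11 at 1 h and of -0.45 at 6 h. On every 1 h array 10 were above vehicle and 9 below, on every 6 h array 24 were below, and over both times 4 were above and 15 below. The 85 unassigned probes also lay low, with medians of 0.20 and -0.37, and over both times 24 were above and 35 below. Glp1r was at -0.61, -0.83, -0.59 and -0.62 at 1 h and at -0.91, -1.99, -1.67 and -1.61 at 6 h. Tshr, the thyrotropin receptor, had means of -0.40 ± 0.07 and -0.93 ± 0.23 (SD, n = 4), and Mmp20, a protease of tooth enamel, of -0.45 ± 0.20 and -1.15 ± 0.10. These genes were below vehicle at both times. Chrna6, a nicotinic receptor subunit of dopamine neurons, was above vehicle at 1 h, with means of 0.79 ± 0.42 and 0.19 ± 0.30, and without replicate 4 at 1 h its difference went from -0.60 to -0.40. Defb5, a defensin, had means of 0.68 ± 0.20 and 0.22 ± 0.16. Among 237 probes of G protein-coupled receptors 9 (3.80%) were among the 238, where the share over all probes was 1.48%. Over both times limma called 27 of the 237 above vehicle and 86 below, where 24% and 25.5% of all probes were called. Signal over background is unknown for these probes, and its part in their ratios was not tested.

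The share of the 238 within 26 gene lists ran from 0% to 7.5%, the latter the immediate early list, where the share over all probes was 1.48%. The lists of solute carriers and ABC transporters (7 of 310 probes), zinc finger factors (6 of 243), other transcription factors (8 of 337) and vesicle and small GTPase genes (9 of 472) held 1.91% to 2.47%. Cell cycle and DNA replication genes held 1 of 231 (0.433%), which was Cdc42ep4, a Cdc42 effector of the cytoskeleton. The vesicle list counted Rab10os, an antisense transcript and not a GTPase gene, and the list of pumps counted Atp23, a mitochondrial protease. Neither lists nor groups were tested.

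Other probes for the same genes gave a check on values the rule had not used. For 32 of the 198 symbols the array held 33 other probes with 8 values. Of these 18 were lower and 15 higher at 6 h than at 1 h, so 54.5% were lower, against 53.2% of all probes. Their median difference was -0.07, while that of the matching probes among the 238 was -0.53. None was lower by 0.4, and 1 was lower without overlap. That was a probe of Ly6k, a GPI-anchored protein of testis, with a difference of -0.35 where its fellow had -0.61. In the opposite direction, the other probe of Lrrc28 was higher at 6 h by 1.15, on arrays that did not overlap, where its fellow had -0.57. The other probe of Lrrc72 was higher by 0.80. The files give no probe sequences, so transcripts of one gene and cross-matching of a probe cannot be told apart here.

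Of the 238 probes 39 (16.4%) were not in the platform annotation, near the 15.7% of all probes, and 1 had several symbols. The unnamed probes with the largest differences were M200012486, at -1.44 but at -0.61 without replicate 2 at 6 h, and M200010678, at -1.03 and below 0 on every 6 h array. By chromosome the share among probes with 1 symbol ran from 0.612% on chromosome 14 (3 of 490) to 2.73% on chromosome 19 (13 of 476). Just inside the threshold were Gpr45, Ifit1 and Txndc17, each with a difference of -0.40. Without replicate 4 at 1 h the difference was -0.26 for Gpr45 and -0.21 for Txndc17. Sms, 2310011J03Rik and Zfp444, each without overlap between the times, were just outside it, each with a difference of -0.3975.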

How the data were processed

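RNA of mpkCCDc14 cells was compared on 8 arrays with 2 dyes. The deposited table holds log2 values of Cy5 (aldosterone) over Cy3 (vehicle), which the authors normalized in R and Bioconductor after scanning with GenePix 4.0, per the labels. For the normalization method, background correction and handling of poor spots the labels give no detail, and the values were used unchanged. Probes were named from the platform annotation, in which 13768 had 1 symbol, 13 had several and 2580 were not listed.

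Each of 16083 probes was fitted by limma (3.58.1, R 4.3.3) with a mean for each time (6 residual degrees of freedom, 3.817 prior). P-values are two-sided and Benjamini-Hochberg adjusted over all probes, with a threshold of 0.05. On simulated data, 88.1%, 95.5% and 100% of changes of 0.5, 1 and 2 in the mean over both times were recovered, and 6.44% of calls were false. The simulated errors were independent between arrays, centred at 0 and without a dye difference. These shares therefore do not give the rate of false calls in the real data. No 2 arrays had over 2.08% of equal values, and pairs correlated at 0.308 to 0.724 across probes. The probes and lists were chosen with earlier results of these data known.

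The named genes are, among probes with 1 symbol, the 15 largest differences, the 5 widest gaps, up to 3 of each list, the 5 highest and 5 lowest means over both times that passed, genes with another probe, and the 3 nearest the threshold on each side. A further 30 were named after their values were seen. Alternatives were scale and quantile normalization, array weights, averaging the probes of a gene, thresholds of 0.3 and 0.5, and leaving out each array. Promoters and miRNAs are from RefSeq. Counts and motif searches were run in Python 3.11.15.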

Additional observations from a re-analysis of the deposited data

Results flagged for a closer look

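Among 240 groups of 4 arrays, 19 held a value far from the other 3 of its time, where a rate of 1 in 20 would give 12. That rate does not hold for genes chosen by these ratios and measured on the same arrays, so nothing is read from the count. Of these, 7 lay on replicate 4 at 1 h, 5 on replicate 2 at 6 h and 2 on replicate 4 at 6 h. The high values on replicate 4 at 1 h were 1.13 for Cd14, 1.78 for S100a6, 0.97 for Sdc4, 1.17 for Osbp, 0.97 for Muc4, 0.98 for Polr1c and 0.91 for Srsf5. The low values on replicate 2 at 6 h were -1.50 for Klrc1, -0.21 for Arsk, -0.13 for Slc38a2, -0.40 for Atp23 and -0.275 for the median of the 238 probes. On replicate 4 at 6 h Zik1 was at -4.93 and Tex30 at -3.02. On replicate 1 at 6 h Ewsr1 was at -0.17, Jund at 0.13 and Coro1b at -0.09. At 1 h, Tet1 was at 0.76 on replicate 1 and Glp1r at -0.83 on replicate 2.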

How the results depend on the processing

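With a threshold of 0.3 in place of 0.4, 447 probes met the rule, all 238 among them, and with 0.5 it was 117. Leaving out 1 array gave 233 (without replicate 2 at 6 h) to 515 (without replicate 2 at 1 h) probes. Scale normalization gave 272 probes (156 shared with the 238), quantile normalization 245 (170 shared), and averaging the probes of a gene 213 (212 shared). The counts of the 238 probes above or below vehicle over both times, above it at 1 h and below it at 6 h stayed within 1.5 times of the reported counts under all settings run. The shares of all probes set beside them also moved. Below vehicle at 6 h that share ran from 5.01% (without replicate 4 at 6 h) to 17.5% (scale normalization). Above vehicle at 1 h it ran from 13.5% (without replicate 4 at 1 h) to 21.1% (array weights). Of 89 named means over both times, 17 lost the call or changed sign under at least 1 setting. Averaging the probes of a gene turned the mean over both times of Marcks to -0.10 and of Mapk6 to -0.0285, and the 6 h minus 1 h difference of Lrrc28 to 0.29 and of Lrrc72 to 0.20, which follows from their other probes. No paired analysis was possible because only 2 arrays carry a number in their titles, both at 6 h. Without scanner intensities the signal over background of a spot, and with it the precision of single values, is unknown.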
